A study of Homo sapiens with 15 samples.

Results

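The region described here is the long arm of human chromosome 9 from position 70000001 to the last binding site at 140635243 (build hg19). Towards its end the sites of the chromatin protein WDR5 thin out while those of the transcription factor MYC go on. Binding sites were mapped by chromatin immunoprecipitation and sequencing (ChIP-seq) and deposited as lists of peaks, stretches where precipitated DNA piled up. The region was defined by position, and was selected on the measured counts of peaks and on the overlaps between the lists. Those counts and overlaps are therefore given as descriptions, with no test. It holds 540 of the 20388 peaks deposited: 100 of 2527 for wild-type MYC, 54 of 690 for a MYC mutant that is deficient in binding WDR5 (WBM-MYC), and 386 of 17171 for WDR5.

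All material came from HEK293, a human embryonic kidney cell line. Retroviral transduction gave the cells wild-type MYC (WT-MYC) or WBM-MYC, each with a FLAG tag, or only an empty vector as the control. Tagged protein was precipitated with M2 agarose in all 3 kinds of transduced cells. WDR5 was precipitated with an antibody from HEK293 cells that are not labelled as transduced, and rabbit IgG served as its control. Each of these 5 groups has 3 independent biological replicates, 15 libraries in all, but the deposited tables give a single list for WT-MYC, 1 for the mutant and 1 for WDR5. No spread between replicates can thus be given, and every interval below is an exact (Clopper-Pearson) 95% interval that covers counting error over peaks only. Depth is unknown, the lists carry no score, and peaks of the vector and IgG libraries were not analysed here. WDR5 and tagged MYC were mapped in different cells, so a difference between the cells and one between the proteins cannot be told apart.

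MYC is a DNA-binding protein that pairs with MAX and acts at the promoters of growth, ribosome and metabolism genes. WDR5 is a scaffold of the complexes that methylate lysine of histone H3 at active promoters, and it offers MYC a docking surface on chromatin. The mutant tests how far MYC relies on that surface. The distal part of the chromosome 9 long arm is rich in genes and includes ABL1, TSC1 and NOTCH1. No hg19 gene annotation or sequence was at hand, so no peak was assigned to a gene, and peaks are named by position.

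The edge of the region fell in a stretch poor in peaks. The nearest WT-MYC peak outside it began at 38392543, the nearest WBM-MYC peak at 21974630 and the nearest WDR5 peak at 66458268. The first inside began at 71650518, 95055886 and 71320075, in the same order. Moving the edge within the WDR5 stretch, from 66458655 to 71320075, would leave the members as they are, since the MYC lists have no peak there either.

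Both MYC lists were densest at the end of the arm, while the WDR5 list was densest shortly before it and sparse at the end. Along the 30 Mb from 70000001 to 100000000, called the proximal zone here, there were 8 WT-MYC peaks, 1 WBM-MYC peak and 121 WDR5 peaks. Over the next 30 Mb, the middle zone, they had 22, 10 and 162 peaks. In the 5 Mb from 130000001 to 135000000, the transition zone, they had 19, 10 and 90. From 135000001 to the last peak, the terminal zone of 5.635 Mb, they had 51, 33 and 13.

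Expressed as density, WT-MYC went from 0.267 peaks per Mb in the proximal zone to 0.733, 3.8 and 9.05 in the zones that follow. WBM-MYC went from 0.0333 to 0.333, 2.0 and 5.86 peaks per Mb. WDR5 went from 4.03 to 5.40 and 18.0 peaks per Mb, and then to 2.31. The transition zone was thus the densest of the 4 zones for WDR5, and the terminal zone was the densest for both MYC forms and the sparsest for WDR5. Within the wide zones, single 5-Mb stretches were as poor in WDR5 as the end. Those from 75000001, 80000001 and 105000001 held 12, 5 and 11 WDR5 peaks, against 11 in that from 135000001. They held 0, 1 and 0 WT-MYC peaks, against 34. The terminal zone held 2.02% of all WT-MYC peaks and 4.78% of all WBM-MYC peaks, but 0.0757% of all WDR5 peaks.

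**Figure D1:**
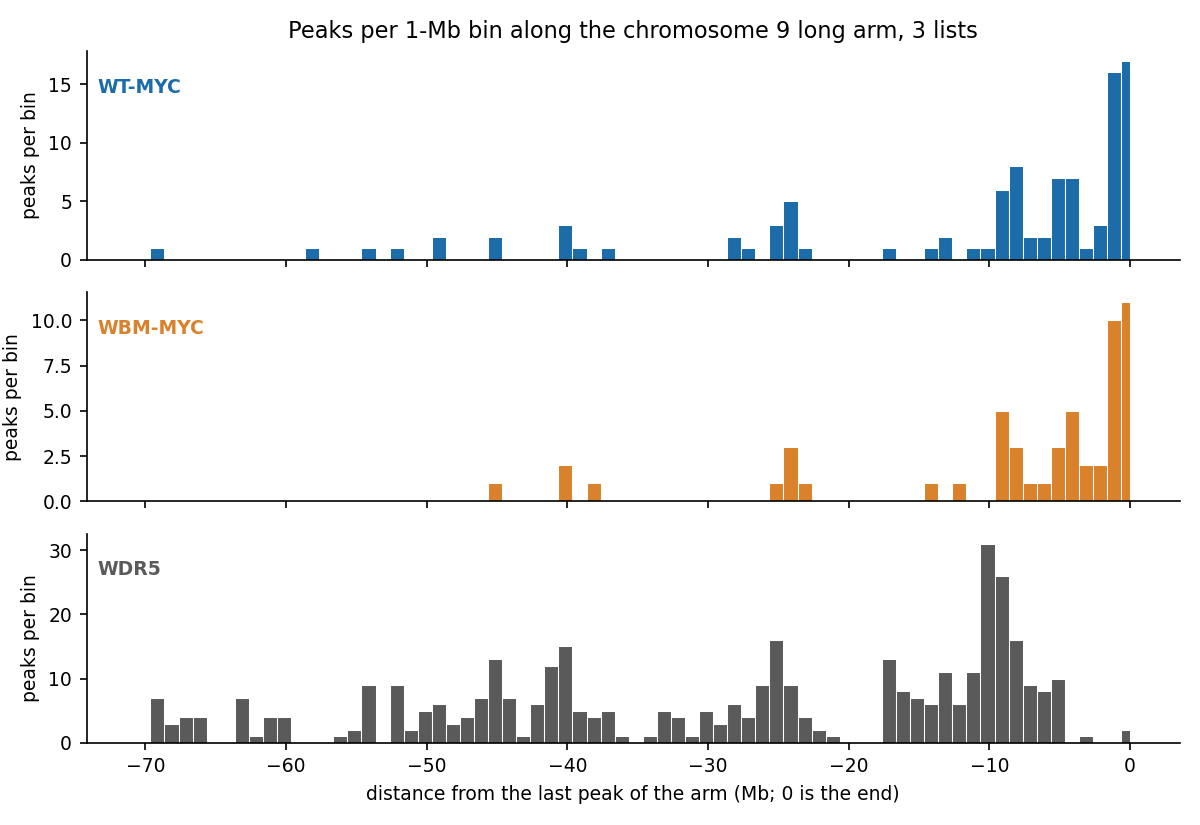
Number of peaks in each 1-Mb bin (y axis) against distance in Mb from the last peak of the arm (x axis), for WT-MYC, WBM-MYC and WDR5; the last bin is shorter and drawn to its length. WDR5 reaches 31 peaks in the bin from 130000001, while both MYC lists are highest in the last pair of bins.

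Bins of 1 Mb located the change more closely. From 130000001 on, successive 1-Mb bins held 31, 26, 16, 9 and 8 WDR5 peaks. The counts thus fell within the transition zone but stayed above 4, the median of the 1-Mb bins before it. The bin from 135000001 held 10 WDR5 peaks, all of them before 135906640. The bins that followed held 0, 1, 0, 0 and 2. WT-MYC over those same 11 bins held 1, 6, 8, 2 and 2 peaks, then 7, and then 7, 1, 3, 16 and 17. WBM-MYC held 0, 5, 3, 1 and 1 peaks, then 3, and then 5, 2, 2, 10 and 11. The highest MYC counts therefore lay in the last bins, the final one only 0.635 Mb long, and the highest WDR5 count 10 bins earlier.

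Before 130000001 few bins held MYC at all. Of those 60 bins, 18 held WT-MYC and 8 held WBM-MYC, with at most 5 WT-MYC peaks in a bin. WDR5 had a median of 4 and at most 16 peaks in these bins, and 11 held none. Only 1 of the 11 bins without WDR5 held a WT-MYC peak. WT-MYC outnumbered WDR5 in 5 of the 71 bins of the arm, the bins from 82000001, 136000001, 138000001, 139000001 and 140000001.

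Put as a ratio, there were 15.1 WDR5 peaks for each WT-MYC peak in the proximal zone, 7.36 in the middle zone and 4.74 in the transition zone. In the terminal zone there were 0.255. The ratio over all peaks outside the region was 6.92. On the rest of chromosome 9, below 70000001, it was 9.68, from 184 WDR5 and 19 WT-MYC peaks.

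Long stretches without WDR5 were usual, but long stretches with MYC and no WDR5 were not. Of 540 gaps of at least 1 Mb between neighbouring WDR5 peaks in the genome, 513 held no WT-MYC peak, and 3 (0.556%) held at least 5. Of these 3, 2 lay in the terminal zone. One, from 135906641 to 137788200, was 1.88 Mb long and held 10 WT-MYC and 7 WBM-MYC peaks. The other, from 137788825 to 140429409, was 2.64 Mb long and held 31 WT-MYC and 20 WBM-MYC peaks. The region has 10 more such gaps before 130000001, the longest of 3.89 Mb, and together these held 1 WT-MYC peak. The list of WDR5 peaks shows only what was kept in it. An absence of WDR5 binding in the terminal gaps and a removal of that stretch from the list by filtering cannot be told apart without reads, and this holds for every terminal WDR5 count and overlap given here.

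The share of MYC peaks that overlapped WDR5 was lowest in the terminal zone for both MYC forms. Peaks counted as overlapping from 1 shared bp upwards. In the proximal zone 5 of 8 WT-MYC peaks lay on WDR5 (62.5%, 24.5 to 91.5%), and in the middle zone 19 of 22 did (86.4%, 65.1 to 97.1%). In the transition zone 9 of 19 did (47.4%, 24.4 to 71.1%), and in the terminal zone 6 of 51 (11.8%, 4.44 to 23.9%). The 19 WT-MYC peaks on the rest of chromosome 9 all overlapped WDR5 (100%, 82.4 to 100%), and outside the region 2057 of 2427 did (84.8%, 83.3 to 86.2%). Seen from WDR5 the order was the reverse, with 7 of 13 terminal WDR5 peaks on WT-MYC (53.8%, 25.1 to 80.8%). In the proximal, middle and transition zones 5.79, 13.0 and 11.1% of WDR5 peaks were. Outside the region 2284 of 16785 were (13.6%, 13.1 to 14.1%).

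For WBM-MYC, the single proximal peak lay on WDR5, as did 7 of 10 in the middle zone (70%, 34.8 to 93.3%) and 6 of 10 in the transition zone (60%, 26.2 to 87.8%). The order of these 2 zones turned when only the leading 50% of each list was used, with 1 of 3 (33.3%) and 4 of 6 (66.7%). In the terminal zone 2 of 33 did (6.06%, 0.743 to 20.2%). Outside the region 505 of 636 WBM-MYC peaks overlapped WDR5 (79.4%, 76.05 to 82.5%). The intervals of the proximal, middle and transition zones are wide and overlap each other for each MYC form. Since the region was selected on these overlaps, the intervals are a description and not a test between zones.

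**Figure D2:**
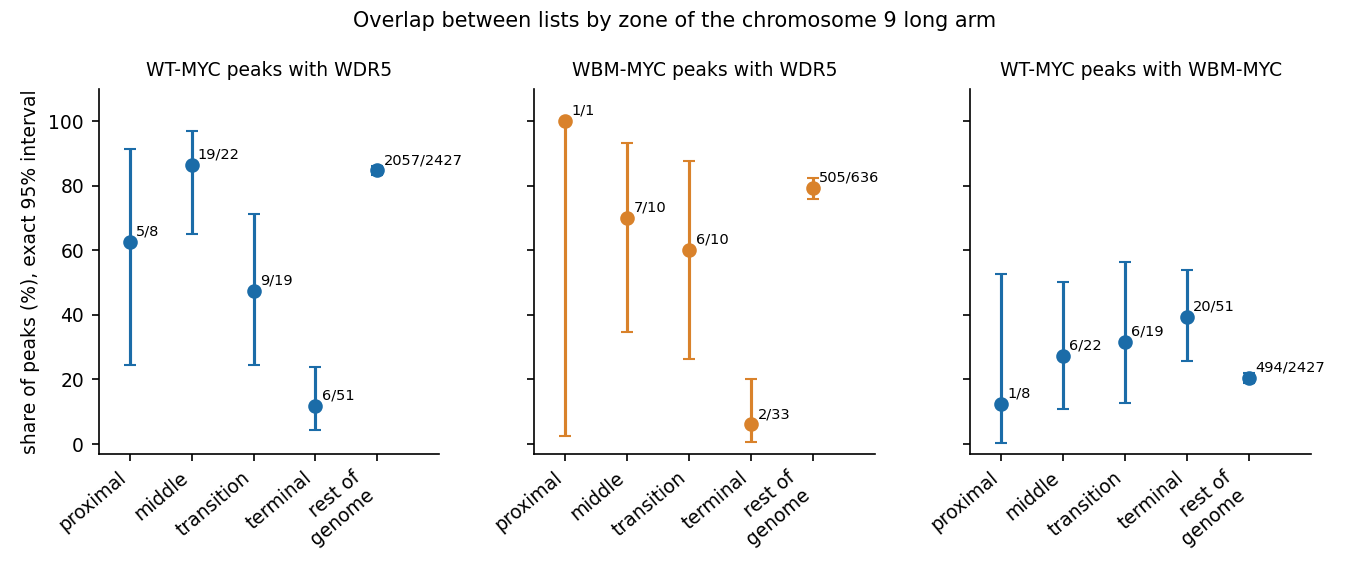
Share of peaks in percent (y axis) that overlap the partner list, by zone of the arm and for all peaks outside it (x axis), with exact 95% intervals as bars and counts beside the points. The share on WDR5 is 11.8% for WT-MYC and 6.06% for WBM-MYC in the terminal zone, while the share of WT-MYC with WBM-MYC there is 39.2%.

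The transition zone was a patchwork of WT-MYC peaks with and without WDR5. The first 4, starting at 130565089, 131084522, 131419027 and 131549214, overlapped WDR5, with centres 48, 151.5, 91 and 64.5 bp apart. The next 3, at 131643827, 131798836 and 131902122, lay 51.5, 206 and 118 kb from the nearest WDR5 peak. WDR5 was found again at 132020695 and 132176000, with centres 1.5 and 36 bp from those of WT-MYC. The peak at 132020695 is the early one of these, at line 99 of the WT-MYC list, and it also overlapped WBM-MYC. After it, the pair at 132249550 and 132250991 had no WDR5 peak within 68.0 kb.

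Further on in that zone, the WT-MYC peak at 132388311 lay 5.18 kb from WDR5, the nearest of all non-overlapping peaks from 130000001 on. The peak at 132459637 lay on WDR5 and those at 132552682 and 132644022 did not. The latter, 314 bp wide where the usual WT-MYC width was 496 bp, stood at line 12 of the list. The peaks at 133556573 and 133569093 overlapped WDR5, with centres 14.5 and 79.5 bp apart. The last 2 of the zone, at 134406415 and 134989427, lay 136 and 34.0 kb from WDR5. Peaks with and without WDR5 thus alternated over the zone, with no single point of change inside it.

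In the terminal zone, 5 of the 10 WDR5 peaks in a short block before the gaps overlapped WT-MYC. The 13 WDR5 peaks of the zone began at 135036886, 135230071, 135282084, 135544882, 135620556, 135620772, 135819762, 135820196, 135897675 and 135906145, and then at 137788201, 140429410 and 140634887. Those at 135036886, 135230071, 135282084, 135620556 and 135620772 lay 47.0 to 227 kb from the nearest WT-MYC peak. The peak at 135544882 was 1575 bp wide and stood at line 82 of the WDR5 list. It carried WT-MYC at 135544973 and WBM-MYC at 135545047. The peak at 135906145, at line 196, carried WT-MYC at 135906123 and WBM-MYC at 135906160, with centres 22 and 5 bp from its own.

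Between these, WT-MYC at 135819762 overlapped 2 neighbouring WDR5 peaks, and WT-MYC at 135897539 lay 31.5 bp from the WDR5 centre. Neither overlapped WBM-MYC. The WT-MYC peak at 135457346, earlier in this block, overlapped WBM-MYC and lay 87.0 kb from WDR5. From 135906641 on, 46 WT-MYC peaks followed. The 2 of them on WDR5 began at 140429224 and 140634748, with centres 99.5 and 22 bp from WDR5. Those WDR5 peaks were narrow, 323 and 262 bp, and stood at lines 9797 and 10430. The remaining WDR5 peak after the block, at 137788201 and so before those, was 624 bp wide. It stood at line 16073 and lay 604 kb from the nearest WT-MYC peak.

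In the terminal zone the 45 WT-MYC peaks without WDR5 lay a median of 405 kb from it (17.0 to 1292 kb), and the 10 of the transition zone a median of 59.7 kb (5.18 to 206 kb). Of these, 7 of the 45 terminal and 7 of the 10 transition peaks had a WDR5 peak within 100 kb, against 298 of 370 outside the region. None of these 55 had a WDR5 peak within 1 kb. Outside the region, the 370 WT-MYC peaks without WDR5 lay a median of 22.0 kb from it, and 89 had one within 1 kb. In the proximal and middle zones 3 of 6 did. The 31 terminal WBM-MYC peaks without WDR5 lay a median of 530.5 kb from it (43.3 to 1305 kb), against 28.4 kb for the 131 such peaks outside the region.

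The transition and terminal zones accounted for part of all MYC peaks that lack WDR5. They held 55 of the 431 WT-MYC peaks without WDR5 in the genome (12.8%, 9.76 to 16.3%), against 70 of all 2527 WT-MYC peaks (2.77%). For WBM-MYC they held 35 of 169 (20.7%, 14.9 to 27.6%), against 43 of all 690 WBM-MYC peaks (6.23%). Of WT-MYC peaks that overlapped WBM-MYC and had no WDR5, they held 20 of 108 (18.5%, 11.7 to 27.1%). Of all WT-MYC peaks that overlapped WBM-MYC, they held 26 of 527. The shares without WDR5 restate the low overlap given above and are no separate evidence of it.

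WBM-MYC, the mutant deficient in binding WDR5, was frequent at the end of the arm. There were 0.647 WBM-MYC peaks for each WT-MYC peak in the terminal zone, 0.526 in the transition zone and 0.367 before it, against 0.262 outside the region. Among 75 bins of 5 Mb with at least 10 WT-MYC peaks, 11 (14.7%) had at least 0.5 WBM-MYC peaks for each WT-MYC peak. All 3 bins of the region that have so many WT-MYC peaks are among the 11. The bin from 135000001 to 140000000, with 22 WBM-MYC peaks, had the highest WBM-MYC count of the 582 bins with any peak.

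Named by position, the first 5 terminal WBM-MYC peaks began at 135457374, 135545047, 135906160, 136202964 and 136282932, and all 5 overlapped WT-MYC. They stood at lines 20, 117, 42, 111 and 30 of the 690 in the list. The last 5 began at 140195730, 140197092, 140473006, 140500098 and 140506256. Of these, the peak at 140197092 lay 0.874 kb and that at 140506256 lay 5.71 kb from WT-MYC, and the other 3 overlapped it. The zone also held a pair that overlapped each other, at 140099862 and 140100086, both on the WT-MYC peak at 140099893.

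The MYC forms shared sites with each other at the end of the arm, where few were shared with WDR5. Of the 51 WT-MYC peaks, 20 overlapped WBM-MYC (39.2%, 25.8 to 53.9%), against 6 of 19 in the transition zone (31.6%, 12.6 to 56.6%), 6 of 22 in the middle zone (27.3%, 10.7 to 50.2%) and 1 of 8 in the proximal zone (12.5%, 0.316 to 52.7%). Outside the region 494 of 2427 did (20.4%, 18.8 to 22.0%). The centres of overlapping peaks lay a median of 31.5 bp apart in the terminal zone (2 to 304 bp) and 13.5 bp in the transition zone (2 to 37 bp), against 33.25 bp outside the region. The closest terminal pair was that of WT-MYC at 139838914 and WBM-MYC at 139838936. The widest apart was that of 138392818 and 138392534.

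Seen from the mutant, 19 of 33 terminal WBM-MYC peaks overlapped WT-MYC (57.6%, 39.2 to 74.5%), against 465 of 636 outside the region (73.1%, 69.5 to 76.5%). So 14 terminal WBM-MYC peaks had no WT-MYC peak, and none of the 14 had a WDR5 peak. Of the 14, 2 lay within 1 kb of WT-MYC and 12 within 100 kb. Examples are the neighbours at 139377072 and 139378507, 43.5 and 44.9 kb from WT-MYC, at lines 151 and 188 of the WBM-MYC list. Outside the region 171 WBM-MYC peaks had no WT-MYC peak, and 49 of these had no WDR5 peak either. The WT-MYC peaks of the zone divided into 2 with both partners, 18 with WBM-MYC alone, 4 with WDR5 alone and 27 with neither. Outside the region the same classes held 407, 87, 1650 and 283 of the 2427 WT-MYC peaks.

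The place of a peak in its file was examined because it was not used to select the region. The lists are not sorted by position, and what orders them is not given in the sources used here. For WT-MYC, 62.7% of the 51 terminal peaks and 68.4% of the 19 transition peaks were in the first 50% of the list, against 49.6% outside the region. For WDR5, 51.1% of the 90 transition peaks were in the first 50% of their list, and 6 of the 13 terminal peaks were.

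These places were tested in each 5-Mb bin of the genome with at least 10 peaks of the list, with peaks as the units (two-sided Fisher's exact test, with Benjamini-Hochberg adjustment across bins). For WDR5 0 of 491 bins (0.00%) passed at an adjusted p under 0.05, and 42 had an unadjusted p under 0.05. For WT-MYC 0 of 75 bins (0.00%) passed, and 3 had an unadjusted p under 0.05. In the region, 0 of 13 WDR5 bins and 0 of 3 WT-MYC bins had even an unadjusted p under 0.05. The bin from 135000001 had 21 of 34 WT-MYC peaks in the first 50% of the list (61.8%, 43.6 to 77.8%; odds ratio 1.63, Fisher's exact test, unadjusted p = 0.172, adjusted p = 1). For WDR5 the same bin had 6 of 11 (54.5%, 23.4 to 83.3%; odds ratio 1.20, Fisher's exact test, unadjusted p = 0.774, adjusted p = 1). When the first 25% of the WDR5 list was set against the rest, 6 of 491 bins passed, and the bins from 130000001 and 135000001 were not among them (Fisher's exact test, adjusted p = 0.714 and 0.890). The WT-MYC bins from 130000001 and 140000001 had 13 of 19 (68.4%) and 11 of 17 (64.7%) in the first 50% of the list. Their odds ratios were 2.18 and 1.84 (Fisher's exact test, unadjusted p = 0.114 and 0.236). All 3 WT-MYC bins thus leaned towards early places, though none passed. With so few peaks the intervals leave room for a sizeable difference, in either direction for WDR5 and mostly towards early places for WT-MYC.

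The earliest WT-MYC peaks of the terminal zone, by line, began at 139622605 (line 19), 135457346 (line 45), 136283080 (line 49), 136214961 (line 68) and 135544973 (line 81). Next came 136202978 (line 92), 136024661 (line 104), 140149415 (line 208), 140429224 (line 327) and 140023947 (line 345). Of these 10, 6 overlapped WBM-MYC, and those at 135544973 and 140429224 overlapped WDR5. Early WT-MYC peaks overlapped WBM-MYC more often in the whole list too. In its first 50%, 415 of 1263 did (32.9%), and in the rest 112 of 1264 (8.86%). In the terminal zone 16 of the 32 peaks from the first 50% did. The peak at 139622605 coincided with line 5 of the WBM-MYC list, at 139622637. Both were narrow, 260 and 177 bp, and their centres lay 9.5 bp apart, with the nearest WDR5 peak 807 kb away. Narrow peaks were few, with 3 of 100 WT-MYC and 1 of 54 WBM-MYC peaks in the region below the usual width of their list. In the whole lists 53 of 2527 WT-MYC and 5 of 690 WBM-MYC peaks were.

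**Figure D3:**
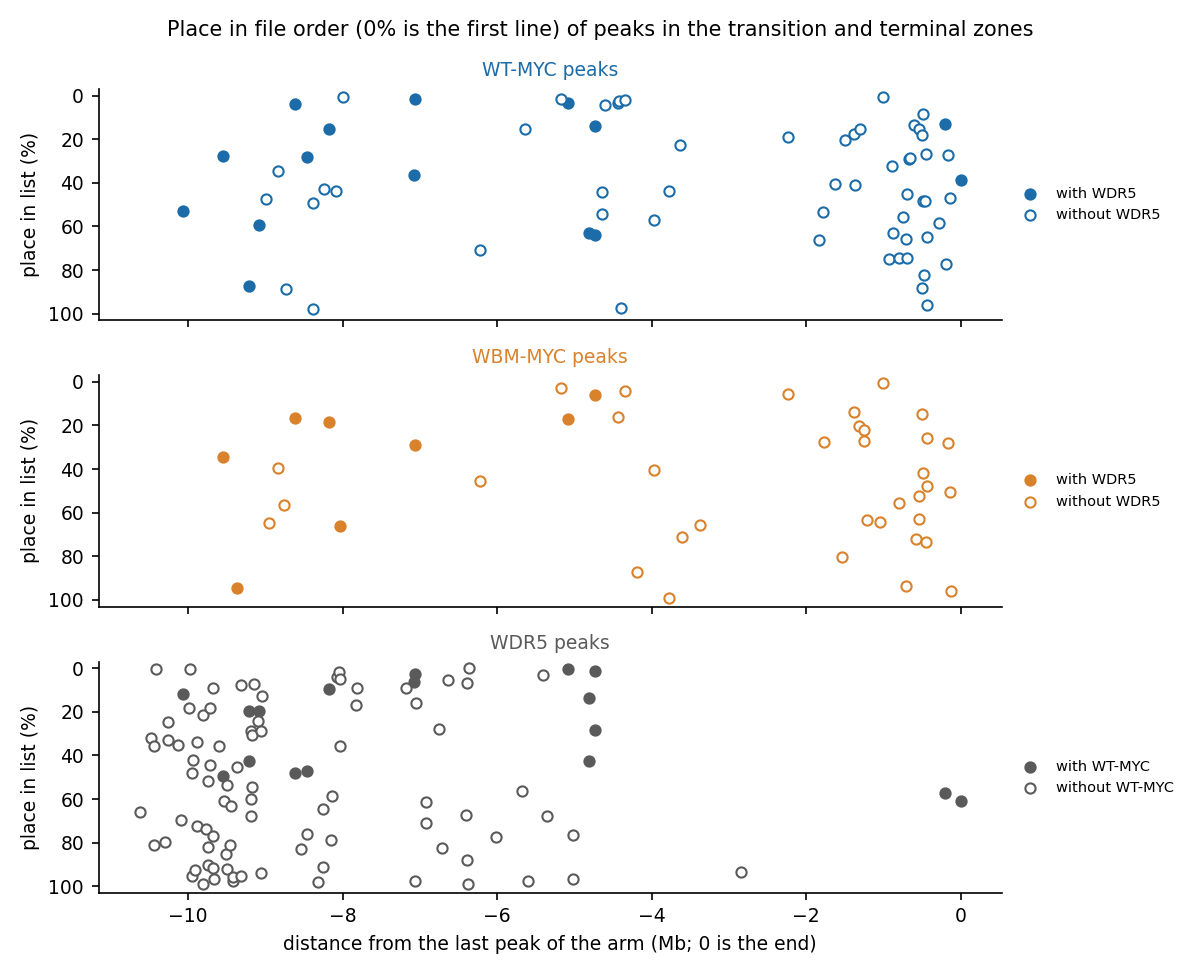
Place of each peak in its list in percent (y axis, first line at the top) against distance in Mb from the last peak of the arm (x axis), for the transition and terminal zones. Filled points overlap the partner list named in the key; WT-MYC and WBM-MYC peaks without WDR5 occur from the top of their lists to the bottom, and 13 WDR5 peaks stand in the terminal zone.

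Set among the bins of the whole genome, the terminal bins combined many WT-MYC peaks with few WDR5 peaks. The bin from 135000001 had 34 WT-MYC peaks, which ranked 2 of 582 bins, while its 11 WDR5 peaks ranked 458. The transition bin ranked 15 for WT-MYC and 25 for WDR5. Of the 75 bins with at least 10 WT-MYC peaks, 72 lie outside the region. Those 72 had between 23 and 179 WDR5 peaks (median 70), and between 1.91 and 10.6 WDR5 peaks for each WT-MYC peak (median 5.03). The bins from 135000001 and 140000001 had 0.324 and 0.118. The bin from 140000001 covers only 0.635 Mb up to the last peak, so its counts are not comparable with those of full bins.

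By overlap, 3 of the 75 bins (4.00%) had under 50% of their WT-MYC peaks on WDR5, and all 3 are those of this region. Since this contrast led to the region being chosen, the count is only a description. The other 72 bins ran from 52.9 to 100% (median 85.2%), so the transition bin, at 47.4%, lay just below the lowest of them. With bins displaced by 2.5 Mb, 5 of 74 bins were under 50%, 2 of them on chromosome 9. With bins of at least 5 WT-MYC peaks, 10 of 189 were, 3 of them on chromosome 9. Low shares thus also occurred elsewhere, in bins with fewer peaks or other borders.

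**Figure D4:**
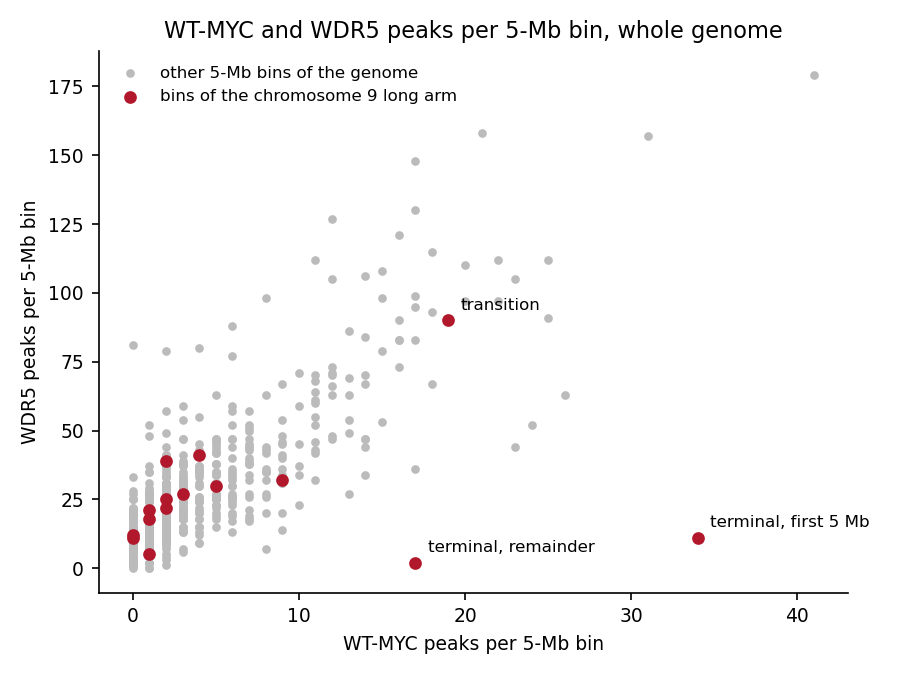
WDR5 peaks per 5-Mb bin (y axis) against WT-MYC peaks per 5-Mb bin (x axis) for the bins of the genome with any peak; red points are bins of the chromosome 9 long arm. The transition bin lies among the others at 19 and 90 peaks, and the terminal bins lie at 34 and 11 and at 17 and 2 peaks. The last of these bins covers only 0.635 Mb up to the last peak.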

How the data were processed

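The authors deposited 1 table of peaks for WT-MYC, another for WBM-MYC and another for WDR5, with chromosome, start and end and no other value such as a score. Base calling with CASAVA 1.8.2, read alignment with Bowtie 0.12.7 and build hg19 are named by the submitters' processing notes. How peaks were called, against which control and whether on pooled replicates is not given in the sources used here, so a site missing from a list may lie below its threshold.

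Starts are printed counted from 1. Peaks were placed in 1-Mb and 5-Mb bins by their start. The region, zones, bins and tests were chosen with earlier results of these data known. Peaks named by position were every terminal WDR5 peak, WT-MYC peaks from 130000001 on WDR5, the first and last 5 terminal WBM-MYC peaks, and the 10 terminal WT-MYC peaks earliest in file order; the choice of any other followed a look at the values. A planned count of E-boxes under peaks, which needs hg19 sequence, was not run. Overlaps and the per-bin test were tested on simulated data, and the count of WT-MYC peaks on WDR5 was the same with bedtools 2.31.1. Python 3.11.15 and scipy 1.17.1 were used.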

Additional observations from a re-analysis of the deposited data

How the results depend on the processing

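Of 86 recomputed values, 79 stayed within the 95% interval of the value reported (shares), within 1.5 times it (counts) or on its side of 1 and of the threshold (tests), and 7 did not. The share of WT-MYC on WDR5 in the terminal zone was 4.35% when the zone began after 135906640, a border chosen after the data were seen. Only the leading 50% of each list gave 33.3% of middle WBM-MYC peaks on WDR5 (1 of 3), below the 66.7% of transition peaks (4 of 6), and 0% of proximal WT-MYC peaks with WBM-MYC (0 of 3). Bins with under 50% of WT-MYC on WDR5 numbered 10 with at least 5 peaks per bin and 5 with bins displaced by 2.5 Mb, against 3. WDR5 bins past the test of file place numbered 6 with the first 25% of the list set against the rest and 4 with at least 20 peaks per bin, against 0. The cause was not tested, except that the last setting tests fewer bins, 346 in place of 491. The terminal share of WT-MYC on WDR5 was 11.8% also when a WDR5 peak within 1000 or 10000 bp counted. With only the leading 50% of each list it was 6.25% (2 of 32), which counts as within its interval. Several intervals were wide, such as 2.5 to 100% for the 1 proximal WBM-MYC peak, so staying within them shows little. No paired analysis was possible because WT-MYC, WBM-MYC and WDR5 have 1 list each, and no replicate could be left out. Depth per library is unknown.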

Other observations

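Other chromosome ends were set beside that of chromosome 9, taking in each case the 5 Mb before the last peak of any list. On chromosome 9 these held 49 WT-MYC, 31 WBM-MYC and 7 WDR5 peaks, and 5 of the 49 lay on WDR5 (10.2%, exact 95% interval 3.40 to 22.2%). Of the other chromosome ends, 10 held at least 10 WT-MYC peaks, and these had between 36 and 127 WDR5 peaks. Their share of WT-MYC peaks on WDR5 ran from 20 to 92.9%, with a median of 73.7%. The lowest was the end of chromosome 14, where 2 of 10 WT-MYC peaks lay on WDR5 (2.52 to 55.6%) although the stretch held 63 WDR5 peaks. Next came the end of chromosome 8, where 7 of 17 did (41.2%, 18.4 to 67.1%), with 46 WDR5 peaks. At the end of chromosome 19 18 of 21 did (85.7%, 63.7 to 97.0%).

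The only gap between WDR5 peaks outside chromosome 9 that was at least 1 Mb long and held at least 5 WT-MYC peaks lay on chromosome 10, from 46168737 to 47655899 (1.49 Mb). It held 5 WT-MYC and 3 WBM-MYC peaks.

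Among the first 69 WBM-MYC peaks in file order, 37 lay on WDR5 (53.6%, 41.2 to 65.7%). Without the 5 of them in the terminal zone of chromosome 9, 36 of 64 did (56.25%, 43.3 to 68.6%). Of all 690 WBM-MYC peaks, 521 lay on WDR5 (75.5%, 72.1 to 78.7%).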
